A study of Mus musculus with 14 samples.

Results

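Neurons hold their shape and move cargo along axons with 2 kinds of filament. Microtubules are tubes of alpha- and beta-tubulin on which kinesin motors travel outward and dynein travels back to the cell body, and they are bound by stabilizing proteins such as Map2 and tau (*Mapt*), by end-binding proteins, and by stathmins, which bind free tubulin and favour disassembly. Neurofilaments, built from light (*Nefl*), medium (*Nefm*) and heavy (*Nefh*) subunits together with alpha-internexin (*Ina*), set the calibre of axons and are made mostly by neurons with large, long axons. The 38 genes described here were chosen by name from these families: 3 end-binding proteins, 7 structural microtubule-associated proteins, 4 microtubule-associated serine/threonine (MAST) kinases, 3 stathmins, 4 neuronal intermediate filament genes, 3 alpha-tubulins, 5 beta-tubulins, 5 kinesins, 2 subunits of dynein and dynactin, and 2 genes of the doublecortin family. All 38 were among the 13866 genes listed in the count table and all 38 were among the 11852 that had enough counts to be tested.

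RNA was counted from the brains of 14 mice of 19 days of age. Neuronal Gaucher disease, in which glucocerebrosidase fails and glucosylceramide builds up in lysosomes, was induced with conduritol B-epoxide (CBE), an irreversible inhibitor of that enzyme, injected daily into the peritoneum at 100 mg per kg body weight from day 8. The groups were *WT + PBS* (3 C57BL/6JOlaHsd mice given phosphate buffered saline), *WT + CBE* (3), *MyTrMaSt + PBS* (3) and *MyTrMaSt + CBE* (5), where MyTrMaSt null mice lack MyD88, TRIF, MAVS and STING, the adaptors through which innate immune sensors induce interferon. The model inhibits the enzyme by a drug over a short time in young mice, brain tissue was homogenized so that neurons and glia were not separated, and the null and WT mice are not stated to be littermates. All 4 deleted genes still gave counts in the null mice. *Myd88* was lower there, at 13.4 ± 3.61 CPM in WT and 3.94 ± 0.734 in null mice after PBS, and at 25.0 ± 3.76 and 7.30 ± 2.66 after CBE. *Tmem173*, which encodes STING, was higher in null mice after PBS, at 1.69 ± 0.792 CPM in WT and 6.09 ± 1.02 in null mice (1 to 9 and 18 to 20 counts). After CBE its ranges overlapped, at 7.11 ± 1.43 CPM in WT and 9.17 ± 2.33 in null mice. The counts of *Ticam1* (TRIF) and *Mavs* overlapped between the genotypes. Whether the transcript ends that were read lie in the deleted parts is not given in the sources used here. Only the counts of *Myd88* went with the labels, those of *Tmem173* after PBS went against them, and the genotype of each library is taken from its label.

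Library totals ran from 1290616 to 3704691 counts, and the 38 genes took 1.606 to 2.237% of them. Levels are given as CPM, counts scaled to the library total and corrected by the trimmed mean of M values (TMM). The method reads transcript ends, so levels are compared between samples and not between genes. A gene is called changed at an adjusted p below 0.05 in the edgeR quasi-likelihood test, and a DEG if it also differed at least 2-fold. The brain label held, with neuronal markers such as *Snap25* and *Thy1* counted in every library. *Xist*, which is transcribed from the inactive X chromosome of females, had 0 counts in all 3 *WT + PBS* libraries, 1 to 47 in *WT + CBE*, 32 to 46 in *MyTrMaSt + PBS* and 0 to 39 in *MyTrMaSt + CBE*, so its level was not even across the groups.

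*WT + PBS* replicate 1 stood apart from its group. It was the shallowest library, and 13 of the 38 genes differed in it more than 2-fold from the mean of replicates 2 and 3, 6 above and 7 below. The root mean square of its log2 deviations was 1.28, against 0.211 to 0.367 for each library of the other 3 groups against its own group. *Mapre1*, which encodes the end-binding protein EB1, had 2 counts in it against 169 and 88, *Map2* had 54 against 1506 and 995, and *Kif5c* had 76 against 1865 and 1239. *Mapre3*, encoding the brain-enriched end-binding protein EB3, lay on the other side, at 245 CPM against 66.6 and 43.0. Over the 38 genes the deviation rose with the G + C content of the last 500 bases of the longest transcript (Spearman's rho 0.717, Pearson's r 0.513, across genes, which are not independent replicates). Over 11196 tested genes with a transcript, the same rho was 0.566. The part of G + C content in any single result was not tested. The tests of the 38 genes are given with and without this library.

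**Figure D1:**
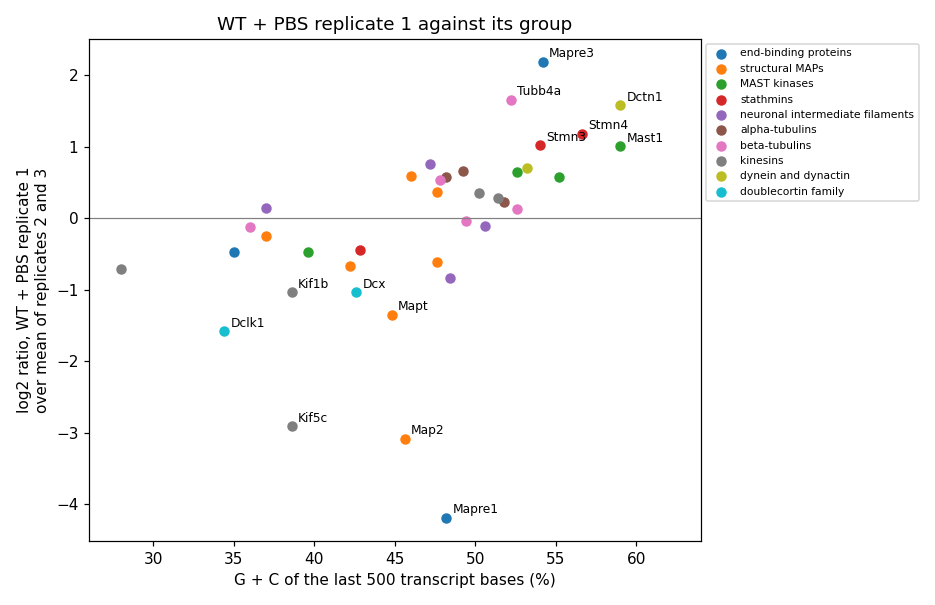
Each point is 1 of the 38 genes; the horizontal axis gives the G + C percentage of the last 500 bases of its longest annotated transcript and the vertical axis the log2 ratio of *WT + PBS* replicate 1 to the mean of replicates 2 and 3. *Mapre3*, *Tubb4a* and *Dctn1* lie highest, and *Mapre1*, *Map2* and *Kif5c* lie lowest.

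Promoter sequences of the tubulin and stathmin genes that fell in WT mice with and without that library are shown first, since these genes were lower together while their promoters differ in composition. RefSeq (GRCm38.p6) promoters, from 250 bases before to 50 after a start site, were at hand for 27 of the 38 genes, 35 promoters in all. None was at hand for *Nefl*, *Nefm*, *Nefh* or *Kif5a*. The GC box GGGCGG, searched on both strands (CCGCCC on the other), is the core motif of Sp family factors. It occurs in 23 of these 35 promoters and in 35.66% of all 32851 promoters. *Tuba4a*, an alpha-tubulin, has 2 such boxes in chr1:75219245-75219544 (minus strand), *Tubb3*, the neuronal beta-tubulin, has 2 in chr8:123411303-123411602 (plus strand), and *Stmn3* has 0 in chr2:181314451-181314750 (minus strand). Each is written from 5′ to 3′ along its gene, with GC boxes in capitals.
Tuba4a: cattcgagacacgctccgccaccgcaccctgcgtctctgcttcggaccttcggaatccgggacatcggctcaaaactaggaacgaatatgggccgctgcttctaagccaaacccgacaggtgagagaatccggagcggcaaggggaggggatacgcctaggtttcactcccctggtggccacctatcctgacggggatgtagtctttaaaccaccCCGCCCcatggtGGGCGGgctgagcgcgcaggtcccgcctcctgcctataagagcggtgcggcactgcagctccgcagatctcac
Tubb3: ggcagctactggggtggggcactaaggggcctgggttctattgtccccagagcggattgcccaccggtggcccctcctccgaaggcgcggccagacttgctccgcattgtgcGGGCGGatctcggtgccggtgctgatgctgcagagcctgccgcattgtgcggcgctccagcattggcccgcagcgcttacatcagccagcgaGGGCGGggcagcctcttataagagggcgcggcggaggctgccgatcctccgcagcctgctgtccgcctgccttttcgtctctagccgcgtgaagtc
Stmn3: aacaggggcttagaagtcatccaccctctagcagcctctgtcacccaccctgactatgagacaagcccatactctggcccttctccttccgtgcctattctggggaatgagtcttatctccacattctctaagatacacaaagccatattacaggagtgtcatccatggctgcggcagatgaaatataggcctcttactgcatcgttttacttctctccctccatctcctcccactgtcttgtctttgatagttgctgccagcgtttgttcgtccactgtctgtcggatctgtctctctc
The *Stmn3* promoter also holds fewer CpG dinucleotides, 6, than that of *Tuba4a* with 24 and that of *Tubb3* with 26; the median over all promoters is 7. A match of letters is a description and not a site of binding.

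In WT mice, CBE lowered 3 of 4 neuronal intermediate filament genes, 2 of 3 stathmins, 3 of 8 tubulins, 1 of 5 kinesins and 1 of 4 MAST kinases. Of the 38 genes, 10 were downregulated and 0 were upregulated (*Nefh*, *Nefm*, *Nefl*, *Stmn3*, *Stmn4*, *Tubb3*, *Tubb5*, *Tuba4a*, *Kif5a* and *Mast2*), where 3.89% of all tested genes were called lower and 6.7% higher. At an unadjusted p below 0.05, 18 of the 38 passed, against 24.7% of all tested genes (10.6% were called in either direction after adjustment). The log2 fold changes of the 38 had a median of -0.38, beside -0.02 for all tested genes. Without *WT + PBS* replicate 1, 9 were downregulated and 0 upregulated, against 4.05% and 8.58% of all tested genes, 19 passed unadjusted (25.1% of all genes), and the median was -0.29. In brain homogenate, fewer neurons and less RNA per neuron cannot be told apart. In sum, the 38 genes gave 20108 to 26056 CPM after PBS (20108 and 21469 without replicate 1) and 15841 to 16753 after CBE.

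**Figure D2:**
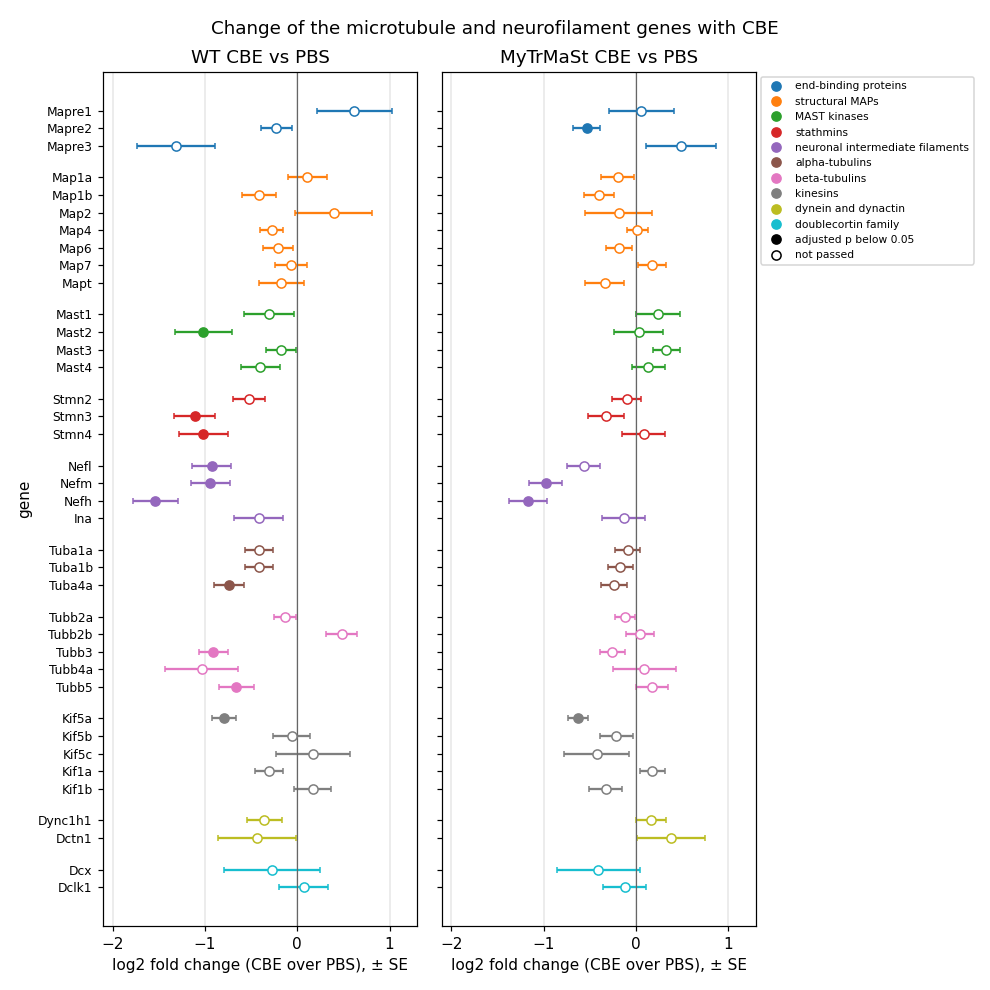
Log2 fold change of CBE over PBS for the 38 genes in WT (left) and MyTrMaSt null mice (right), grouped and coloured by role; bars are standard errors of the edgeR fit and filled points have an adjusted p below 0.05. In WT mice 10 points are filled and in MyTrMaSt null mice 4, all of them left of 0.

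All 3 neurofilament subunits fell. *Nefh*, which encodes the heavy subunit (chr11:4938754-4948064, minus strand, mm10), was at 267, 176 and 143 CPM after PBS and at 77.4, 54.4 and 66.9 after CBE in WT mice. Every *WT + CBE* library lay below every *WT + PBS* library, also without replicate 1. The log2 fold change was -1.54 ± 0.25 (SE, adjusted p = 0.000291), or 34.4% of the PBS level, and without replicate 1 it was -1.25 ± 0.20 (adjusted p = 0.000147), so the fall held. It was also the lowest of the 38 values in either fit.

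*Nefm*, the medium subunit, was at 273, 315 and 277 CPM in WT mice given PBS and at 169, 135 and 145 in those given CBE. The groups did not overlap, the log2 fold change was -0.94 ± 0.21 (adjusted p = 0.00678), and it held without replicate 1 at -0.97 ± 0.20 (adjusted p = 0.00228). *Nefl*, the light subunit, was at 552, 519 and 488 CPM after PBS and at 289.5, 281 and 248 after CBE in WT mice. These groups did not overlap either, and its log2 fold change of -0.93 ± 0.21 (adjusted p = 0.00703) held without replicate 1 at -0.87 ± 0.20 (adjusted p = 0.00493). For *Nefl* and *Nefm*, replicate 1 lay close to the other *WT + PBS* libraries. With *Xist* added to the model as a covariate, *Nefm* was at -0.49 (adjusted p = 0.311) and *Nefl* at -0.40 (adjusted p = 0.338), while *Nefh* stayed past the threshold at -1.20 (adjusted p = 0.0445). The annotated exons of *Nefl* and *Nefm* (both on chromosome 14) overlap on opposite strands, and whether counting used strand is not given in the sources used here. The same holds for *Ina*, *Tuba4a*, *Map1a* and *Mast1*, each with an overlapping gene on the other strand.

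The fourth filament gene, *Ina*, was at 90.2, 169 and 154 CPM in WT mice given PBS and at 92.5, 111 and 110.3 in those given CBE. Here replicate 1 was the lowest of all 6, the log2 fold change was -0.42 ± 0.27 (adjusted p = 0.364), and without replicate 1 it was -0.62 ± 0.23 (adjusted p = 0.0814). *Nefh* took 17.0 ± 4.91% of the counts of the 4 filament genes in *WT + PBS* and 11.1 ± 1.56% in *WT + CBE* (SD, n = 3 each). This difference gave p = 0.1 in a two-sided exact permutation test, the smallest p that 3 against 3 allows, and an adjusted p of 0.2 over 8 such tests. Replicate 1 was at 22.6% against a mean of 14.2% in the other 2 *WT + PBS* libraries, and without it the difference went from -5.86 to -3.06 percentage points.

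Among the motors, *Kif5a* fell and its relatives did not pass the test. *Kif5a* (chr10:127225696-127263348, minus strand), a neuronal kinesin-1 heavy chain that carries neurofilaments among other cargo, was at 1629.8, 1344 and 1346 CPM after PBS and at 868, 773 and 853 after CBE in WT mice. No library of one group reached the other, and the log2 fold change of -0.79 ± 0.13 (adjusted p = 0.000344) held without replicate 1 at -0.68 ± 0.11 (adjusted p = 0.000100). For *Kif5c*, another neuronal kinesin-1, the value turned from 0.17 (adjusted p = 0.843) to -0.29 (adjusted p = 0.111) without that library. *Kif5b*, the kinesin-1 found in most cells, was at -0.06, *Kif1a* and *Kif1b*, which carry synaptic vesicle precursors and mitochondria, were at -0.31 and 0.17, and none of the 3 passed in either fit. Without replicate 1, *Kif1b* turned to -0.08, while *Kif5b* was at -0.22 and *Kif1a* at -0.17. *Dync1h1*, the dynein heavy chain, was at -0.36 (adjusted p = 0.255) and at -0.08 without replicate 1. *Dctn1*, a dynactin subunit with 10 to 39 counts in the WT libraries, turned from -0.43 to 0.16, and neither value passed.

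Of the 8 tubulins, 3 fell in WT mice and 0 rose with all libraries. *Tubb3*, the beta-tubulin used as a marker of neurons, was at 371, 306 and 376 CPM in WT mice given PBS and at 195, 197 and 168 in those given CBE. The 2 groups were far apart beside their spread, and the log2 fold change of -0.91 ± 0.16 (adjusted p = 0.000595) held without replicate 1 at -0.86 ± 0.15 (adjusted p = 0.000299). *Tuba4a*, an alpha-tubulin of mature brain, was at 1353, 932 and 789.7 CPM after PBS and at 615, 607 and 621 after CBE in WT mice. The value was -0.74 ± 0.16 (adjusted p = 0.00604) and shrank to -0.48 ± 0.11 without replicate 1, where it still passed (adjusted p = 0.00602). Its annotated exons overlap those of *Stk16* on the opposite strand, so this value shares that doubt. *Tubb5*, a beta-tubulin of many cell types, was at 1414, 859 and 1105 CPM in WT mice given PBS and at 733, 701 and 697 in those given CBE. Its value of -0.66 ± 0.19 (adjusted p = 0.0312) did not hold without replicate 1, at -0.46 ± 0.16 (adjusted p = 0.0743), although the groups still did not overlap. Leaving out *WT + PBS* replicate 3 or any *WT + CBE* library ended this call too.

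*Tubb2b*, a beta-tubulin of developing neurons, was the only one of the 38 whose *WT + CBE* libraries all lay above the *WT + PBS* libraries, with 91.1, 82.3 and 120.2 CPM after PBS and 124, 153 and 133 after CBE in WT mice; the value of 0.48 ± 0.17 did not pass (adjusted p = 0.0825, and 0.0815 without replicate 1), but without *WT + PBS* replicate 3 it was 0.67 ± 0.18 and passed as a rise (adjusted p = 0.0237). *Tubb4a*, mostly made by oligodendrocytes and neurons, was at -1.03 (adjusted p = 0.108) with replicate 1, which held 313 CPM against 108 and 91.1, and at -0.29 (adjusted p = 0.576) without it; without *WT + PBS* replicate 3 it passed, at -1.34 (adjusted p = 0.0354). *Tubb2a*, *Tuba1a* and *Tuba1b* were at -0.13, -0.41 and -0.41 and did not pass in either fit, though *Tuba1a* did without *WT + PBS* replicate 2 (-0.56, adjusted p = 0.0229). Their counts are the less certain because 48.2%, 57.6% and 65.0% of the 36-base stretches in the last 500 bases of these 3 transcripts also occur in transcripts of another gene, and only uniquely mapping reads were kept. *Tubb3* took 7.71 ± 0.285% of the counts of the 5 beta-tubulins in *WT + PBS* and 5.08 ± 0.303% in *WT + CBE* (SD, n = 3 each). *Tubb2b* took 2.15 ± 0.374% and 3.73 ± 0.418%. Both gave p = 0.1 in the two-sided exact permutation test, the smallest possible, and adjusted p = 0.2. Without replicate 1 the difference went from -2.64 to -2.73 percentage points for *Tubb3* and from 1.58 to 1.43 for *Tubb2b*.

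Of the 3 stathmins, *Stmn3* and *Stmn4* fell with all libraries, and *Stmn2* and *Stmn3* without replicate 1. *Stmn3* was at 3501, 1720.0 and 1741 CPM in WT mice given PBS and at 1235, 1174 and 807 in those given CBE. Its log2 fold change moved from -1.11 ± 0.22 (adjusted p = 0.00274) to -0.68 ± 0.13 without replicate 1, where it still passed (adjusted p = 0.00132). *Stmn4* was at 713, 327 and 302 CPM after PBS and at 199.6, 216 and 244 after CBE in WT mice, and its value of -1.02 ± 0.27 (adjusted p = 0.0195) became -0.51 ± 0.17 and did not pass (adjusted p = 0.0548); nor did it pass without *WT + CBE* replicate 1 or 2. *Stmn2*, also known as SCG10 and enriched in growing axons, was at 440.4, 623 and 577 CPM in WT mice given PBS and at 370.4, 492 and 281 in those given CBE, did not pass with replicate 1 (-0.52 ± 0.18, adjusted p = 0.0697), and passed without it (-0.64 ± 0.16, adjusted p = 0.00794). With replicate 1 kept, *Stmn2* also passed by DESeq2 (-0.52, adjusted p = 0.0465) and when *WT + CBE* replicate 2 was left out (-0.74, adjusted p = 0.0166).

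**Figure D3:**
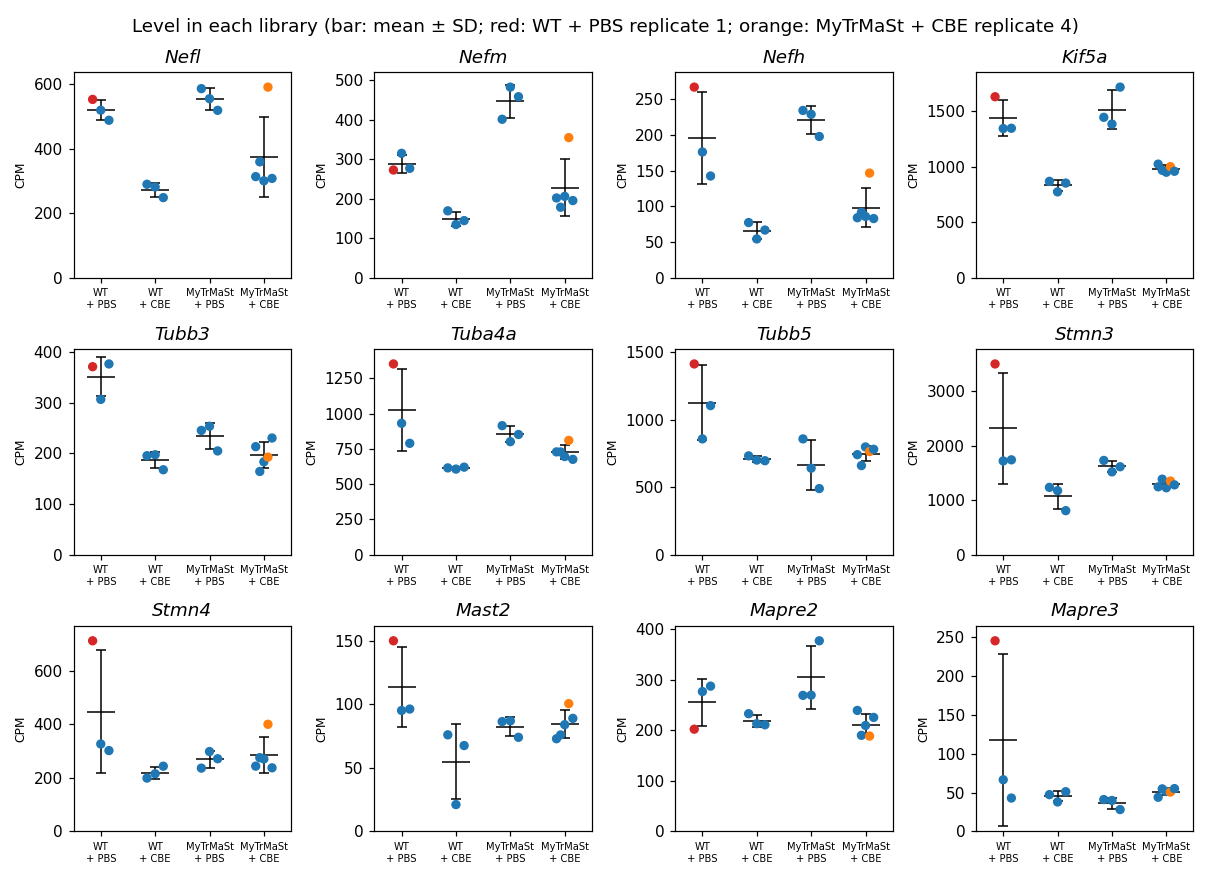
CPM in each of the 14 libraries for 12 genes; points are libraries, bars the mean ± SD of a group, the red point *WT + PBS* replicate 1 and the orange point *MyTrMaSt + CBE* replicate 4. For *Mapre3* the red point, at 245 CPM, lies far above the other 13 libraries, which run from 28.2 to 66.6.

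No end-binding protein or MAST kinase was called in WT mice both with and without replicate 1 (edgeR). *Mapre3* was at 245, 66.6 and 43.0 CPM after PBS and at 47.4, 38.0 and 51.2 after CBE in WT mice. Apart from replicate 1 the ranges overlapped; the log2 fold change was -1.31 ± 0.42 (adjusted p = 0.0548) with it and -0.28 ± 0.20 (adjusted p = 0.432) without it. DESeq2 on all libraries called it (-1.37, adjusted p = 0.0183). Leaving out *WT + PBS* replicate 2 or 3 instead gave -1.61 (adjusted p = 0.0213) and -1.72 (adjusted p = 0.00427). *Mast2* was at 149.8, 95.1 and 96.2 CPM in WT mice given PBS and at 75.9, 21.1 and 67.5 in those given CBE. The groups did not overlap, and *WT + CBE* replicate 2 was far below the other 5. Its value of -1.02 ± 0.31 passed with all libraries (adjusted p = 0.0411), but not without *WT + PBS* replicate 1 (-0.77 ± 0.28, adjusted p = 0.0727) nor without *WT + CBE* replicate 2 (-0.63, adjusted p = 0.111), and it passed in only 4 of the 14 fits that leave out 1 library. *Mapre1* had the highest value of the 38, 0.62 ± 0.40 (adjusted p = 0.379), which rested on the 2 counts in replicate 1 and was 0.21 ± 0.18 without it. *Mapre1* lay at 1.80, 46.7 and 37.1 CPM after PBS and at 45.7, 50.2 and 50.0 after CBE in WT mice. *Mapre2* was at -0.23, and *Mast1*, *Mast3* and *Mast4* ran from -0.40 to -0.18. Without replicate 1, *Mast1* and *Mast3* turned to 0.07 and 0.04, and *Mapre2* and *Mast4* were at -0.35 and -0.50. None of these 4 passed in either fit.

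Of the 7 structural microtubule-associated proteins, 0 passed with all libraries, with log2 fold changes from -0.41 (*Map1b*) to 0.40 (*Map2*). *Mapt*, which encodes tau, was at 75.8, 203 and 185 CPM in WT mice given PBS and at 143, 125 and 152 in those given CBE. Replicate 1 was the lowest library of the 6, and without it the value moved from -0.17 ± 0.24 (adjusted p = 0.723) to -0.47 ± 0.14 and passed (adjusted p = 0.0312). *Map2*, the dendritic protein, moved from 0.40 to -0.08 and did not pass in either fit. *Dcx*, a marker of migrating young neurons with 2 to 19 counts per library, and *Dclk1*, its relative, were at -0.27 and 0.07 and did not pass. Without replicate 1 they were at -0.45 and -0.25 and did not pass either, though all *WT + CBE* libraries then lay lower for *Dclk1*.

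**Figure D4:**
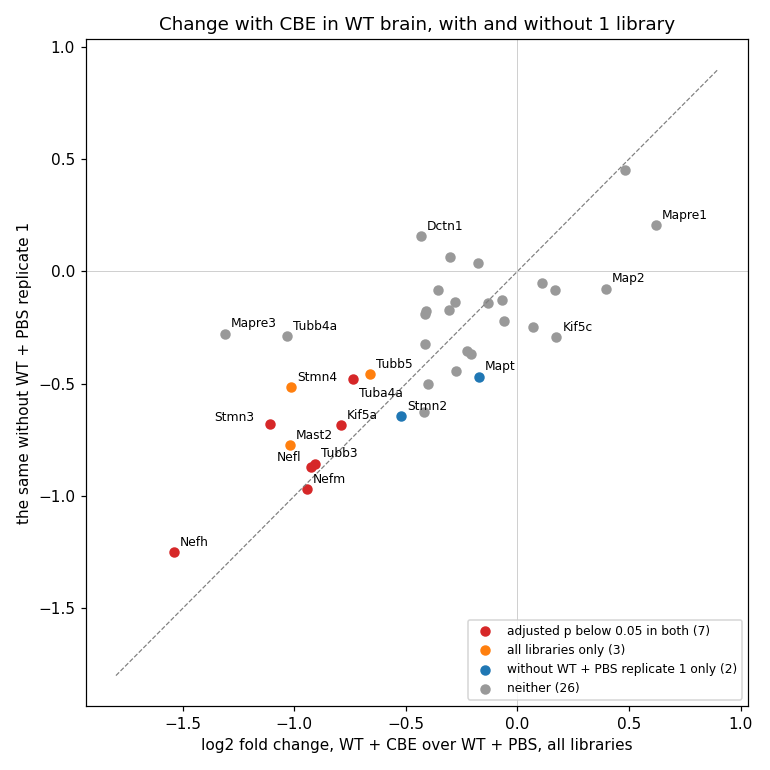
Log2 fold change of each of the 38 genes in WT mice with all libraries (horizontal) and without *WT + PBS* replicate 1 (vertical); the dashed line marks equal values. The 7 red genes passed in both fits, the 3 orange ones only with all libraries (*Stmn4*, *Tubb5*, *Mast2*) and the 2 blue ones only without that library (*Stmn2*, *Mapt*).

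Thus 7 of the 10 calls in WT mice held without *WT + PBS* replicate 1: *Nefh*, *Nefm*, *Nefl*, *Kif5a*, *Tubb3*, *Tuba4a* and *Stmn3*. As to size, 4 of the 10 fell at least 2-fold (*Nefh*, *Stmn3*, *Stmn4* and *Mast2*; 1.21% of all tested genes were such downregulated DEGs), and without that library *Nefh* alone did (0.794% of all genes). For 16 genes all *WT + CBE* libraries lay below all *WT + PBS* libraries and for 1 gene above, where 12.8% and 15.1% of all tested genes did so; without replicate 1 these were 26 and 1, against 22% and 23.2%. The 2-fold rule apart, *Nefh*, *Kif5a* and *Tubb3* passed under each of the 23 other settings tried, among them the covariate for *Xist*, under which *Nefm*, *Nefl*, *Stmn3*, *Stmn4*, *Tuba4a*, *Tubb5* and *Mast2* did not pass.

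In MyTrMaSt null mice, CBE lowered *Nefh*, *Nefm* and *Kif5a* as well. With *Mapre2*, 4 of the 38 genes were downregulated and 0 upregulated, where 2.44% of all tested genes were called lower and 5.32% higher, and the median of the 38 was -0.13, beside 0.01 for all tested genes. At an unadjusted p below 0.05, 7 of the 38 passed, against 23.7% of all tested genes. The summed level of the 38 was 19361 to 20572 CPM in *MyTrMaSt + PBS* and 16769 to 18839 in *MyTrMaSt + CBE*.

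*Nefh* was at 234, 229 and 198 CPM in *MyTrMaSt + PBS* and at 84.2, 91.6, 85.9, 147 and 83.0 in *MyTrMaSt + CBE*. All 5 CBE libraries lay below the 3 PBS libraries, and the log2 fold change was -1.17 ± 0.21 (adjusted p = 0.00150), or 44.5% of the PBS level. It was the lowest of the 38 in this genotype too, and the only one past 2-fold (0.658% of all tested genes). *Nefm* was at 401, 482 and 458 CPM in *MyTrMaSt + PBS* and at 202, 178, 206, 354 and 195 in *MyTrMaSt + CBE*. Again the groups did not overlap, and the value was -0.98 ± 0.18 (adjusted p = 0.00239). *Nefl* was at 586, 555 and 518 CPM in *MyTrMaSt + PBS* and at 313, 359, 300.3, 590.3 and 308 in *MyTrMaSt + CBE*.

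For *Nefl*, replicate 4 of *MyTrMaSt + CBE* lay above every PBS library of its genotype while the other 4 lay well below, and the value of -0.56 ± 0.18 did not pass (adjusted p = 0.0654). It did pass by DESeq2 (adjusted p = 0.0470) and limma voom (adjusted p = 0.0333), with the *Xist* covariate (-0.74, adjusted p = 0.00474), with only the groups compared (adjusted p = 0.0413), and in the 12 libraries of the replicate block, with and without the block. Replicate 4 was also the highest of its group for *Nefm*, *Nefh*, *Ina* and *Stmn4*. Without it, *Nefl* was at -0.79 (adjusted p = 0.000496), *Nefm* at -1.19 and *Nefh* at -1.36. Its summed neuronal markers were at 17346 CPM, below 17900 in replicate 2 and above the 15100 to 15537 of the other libraries. Over all tested genes it also lay further from its group than the other libraries lay from each other (chi-square per degree of freedom 5.19 to 7.36 against 2.69 to 4.50). The cause was not tested. *Nefh* took 16.4 ± 1.25% of the counts of the 4 filament genes in *MyTrMaSt + PBS* (n = 3) and 12.2 ± 0.463% in *MyTrMaSt + CBE* (n = 5), with each CBE library, replicate 4 included, below each PBS library. The two-sided exact permutation p was 0.0179, the smallest that 3 against 5 allows, and 0.143 adjusted over the 8 tests. In the same genotype, *Tubb3* took 6.15 ± 0.750% of the 5 beta-tubulins after PBS (n = 3) and 5.38 ± 0.670% after CBE (n = 5; exact permutation p = 0.196), and *Tubb2b* took 3.02 ± 0.147% and 3.26 ± 0.190% (exact permutation p = 0.125). The share of *Tuba4a* among the 3 alpha-tubulins gave an exact permutation p of 0.3 in WT and 0.161 in null mice. With 3 against 3 libraries p cannot fall below 0.1, so the WT test could not pass. Its difference in WT mice was -2.52 percentage points, and -2.03 without *WT + PBS* replicate 1.

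*Kif5a* was at 1445, 1384 and 1716 CPM in *MyTrMaSt + PBS* and at 1023, 968, 950.3, 1001 and 959 in *MyTrMaSt + CBE*. The CBE libraries were close together and all lower, and the log2 fold change was -0.63 ± 0.11 (adjusted p = 0.00172). *Mapre2*, which encodes the end-binding protein EB2, was at 269, 269 and 377 CPM in *MyTrMaSt + PBS* and at 239, 190.0, 209.5, 189 and 225 in *MyTrMaSt + CBE*. Its value was -0.53 ± 0.15 (adjusted p = 0.0336), and it did not pass without *MyTrMaSt + PBS* replicate 3, the library at 377 CPM (-0.35, adjusted p = 0.282). It passed in 6 of the 14 fits that leave out 1 library, failing also without any *WT + CBE* library or *MyTrMaSt + CBE* replicate 2, 3, 4 or 5.

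The highest value in this genotype was that of *Mapre3*, 0.49 ± 0.38 (adjusted p = 0.467). It was at 41.1, 39.9 and 28.2 CPM in *MyTrMaSt + PBS* and at 44.0, 54.8, 51.5, 50.7 and 55.2 in *MyTrMaSt + CBE*, so all 5 CBE libraries lay above the 3 PBS libraries. *Mast2* was at 86.3, 86.9 and 74.0 CPM in *MyTrMaSt + PBS* and at 72.9, 75.9, 83.9, 100.4 and 88.9 in *MyTrMaSt + CBE*, which overlapped, with a value of 0.03 ± 0.27 (adjusted p = 0.963). Of the other genes called in WT mice alone, *Tubb3* was at -0.25 ± 0.14 (adjusted p = 0.274), *Tuba4a* at -0.23 ± 0.14 (adjusted p = 0.344), *Stmn3* at -0.32 ± 0.19 (adjusted p = 0.341), *Stmn4* at 0.09 ± 0.24 (adjusted p = 0.866) and *Tubb5* at 0.18 ± 0.17 (adjusted p = 0.567). Whether such values differ between the genotypes is a separate test, given below.

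*WT + PBS* replicate 1 is in neither group of this comparison, but 1 model estimates the spread over all 14 libraries, and leaving it out also changes which genes are tested (11852 with it, 12090 without). For *Mapre3*, without it, the value stayed at 0.49 and the SE went from 0.38 to 0.17, which passed (adjusted p = 0.0422). All 4 calls held, and *Nefl*, *Map1b*, *Mapt*, *Stmn3*, *Kif5c* and *Kif1b* joined them as downregulated and *Mapre3* and *Mast3* as upregulated, 10 lower and 2 higher in all. Of all tested genes, 7.87% were then called lower and 10.7% higher, and 14 of the 38 passed unadjusted (33.1% of all genes). The log2 fold changes of the added genes lay between -0.56 and -0.31 for those lower and were 0.33 and 0.49 for those higher. Groups did not overlap for 7 genes in the lower direction and 2 in the higher (10.7% and 11.8% of all tested genes), and without that library for 7 and 2 as well (10.4% and 11.9%).

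*Nefh*, *Nefm* and *Kif5a* were thus downregulated in both genotypes, 3 of 38, where 0.734% of all tested genes were. All 3 held in both without *WT + PBS* replicate 1, where *Mapt*, *Nefl* and *Stmn3* joined them, 6 of 38 against 2.08% of all tested genes. With the *Xist* covariate only *Kif5a* and *Nefh* were lower in both, since *Nefm* did not pass in WT mice. All 3 passed in MyTrMaSt null mice under each of the 23 other settings, which do not include the 2-fold rule. Under that rule only *Nefh* passed in null mice.

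*Xist* had 0 counts in every *WT + PBS* library and 32 to 46 in *MyTrMaSt + PBS*. After PBS, a difference by genotype therefore cannot be told apart from one that goes with *Xist*. Between the labelled genotypes, 0 of the 38 genes differed after PBS (0.186% of all tested genes were called by edgeR on all libraries). At an unadjusted p below 0.05, 11 of the 38 did (16.8% of all genes), and DESeq2, which called 2.26% of all genes, called 3, all lower in MyTrMaSt null mice: *Mapre3*, *Tubb3* and *Tubb5*. *Tubb3* was at 371, 306 and 376 CPM in *WT + PBS* and at 245, 253 and 205 in *MyTrMaSt + PBS*, without overlap; its log2 fold change of -0.58 ± 0.15 (adjusted p = 0.116) was -0.55 ± 0.15 without *WT + PBS* replicate 1 (adjusted p = 0.136). *Tubb5* was at -0.76 ± 0.19 (adjusted p = 0.106) and at -0.57 ± 0.16 without that library (adjusted p = 0.171). *Mapre3* was at -1.63 ± 0.42 (adjusted p = 0.114), and without it at -0.61 ± 0.20 (adjusted p = 0.233). *Nefm* lay higher in *MyTrMaSt + PBS* than in *WT + PBS* in every library, with 0.63 ± 0.21 (adjusted p = 0.164), and 0.59 ± 0.20 without replicate 1 (adjusted p = 0.271). Without *WT + PBS* replicate 1 again 0 of the 38 were called (0.356% of all genes), and 8 passed unadjusted (11.2%).

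After CBE, again 0 of the 38 differed between the genotypes (2.54% of all tested genes were called), 4 passed at an unadjusted p below 0.05 (8.06% of all genes), and DESeq2 called 0. Those 4 were *Nefm* (0.60 ± 0.19, adjusted p = 0.171), *Nefh* (0.56 ± 0.22, adjusted p = 0.398), *Nefl* (0.45 ± 0.19, adjusted p = 0.463) and *Mast2* (0.61 ± 0.28, adjusted p = 0.575), all with the higher value in MyTrMaSt null mice. Without *WT + CBE* replicate 2, *Mast2* was at 0.22 ± 0.20. For the 3 neurofilament genes no *MyTrMaSt + CBE* library was as low as the highest *WT + CBE* library. Such a gap was found for 7 of the 38 genes with null mice higher and for 0 with null mice lower, against 3.94% and 6.02% of all tested genes. When *MyTrMaSt + CBE* replicate 4, the highest library of its group for these 3 genes, was left out, 1 gene passed unadjusted (8.07% of all genes), *Nefm* at 0.38 ± 0.13 (adjusted p = 0.222), while *Nefh* was at 0.37 ± 0.19 and *Nefl* at 0.23 ± 0.12; without *WT + CBE* replicate 2 or 3 there were 2. Without *WT + PBS* replicate 1, which is in neither group, 0 were called (3.52% of all genes), 9 passed unadjusted (12.4%), and the adjusted p of *Nefm* was 0.0697.

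The test of the difference between the 2 responses (the CBE change in MyTrMaSt null mice minus that in WT mice) called 0 of the 38, where 0.489% of all tested genes were called. At an unadjusted p below 0.05 there were 10 (12.5% of all genes), and DESeq2 called 0. Without *WT + PBS* replicate 1, 0 were called (0.868% of all genes) and 8 passed unadjusted (10.9%). With all libraries the largest was *Mapre3* at 1.80 ± 0.57 (adjusted p = 0.223), which was 0.77 ± 0.26 without *WT + PBS* replicate 1 (adjusted p = 0.236). Without that library the largest was *Mast2* at 0.81 ± 0.35 (adjusted p = 0.405), which was 1.05 ± 0.41 with it (adjusted p = 0.325). *Tubb3*, downregulated in WT mice and not past the test in null mice, gave 0.65 ± 0.21 (adjusted p = 0.223), and 0.61 ± 0.19 without that library (adjusted p = 0.191). *Tubb5* gave 0.84 ± 0.25 (adjusted p = 0.208), and 0.64 ± 0.21 without it (adjusted p = 0.226). *Stmn4* gave 1.10 ± 0.36 (adjusted p = 0.234), and 0.60 ± 0.22 without it (adjusted p = 0.285). For the genes that fell in both genotypes the difference did not pass either, at -0.03 ± 0.28 for *Nefm*, 0.37 ± 0.32 for *Nefh* and 0.16 ± 0.17 for *Kif5a*; without that library these were -0.01 ± 0.26, 0.08 ± 0.26 and 0.06 ± 0.14. None of the tubulin and stathmin responses was shown to differ between the genotypes in these data. The uneven *Xist* counts of the PBS groups enter this test too, and their part in it cannot be told apart from genotype.

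The other genes of the microtubule system gave a mixed picture. Among other tubulins, folding factors and tubulin-modifying enzymes (27 genes, 24 tested), 3 were upregulated and 2 downregulated in WT mice, beside 6.7% and 3.89% of all tested genes, and 2 were upregulated and 0 downregulated in null mice, beside 5.32% and 2.44%. Without *WT + PBS* replicate 1 these were 3 and 2 in WT mice (8.58% and 4.05% of all genes) and 2 and 4 in null mice (10.7% and 7.87%). *Tuba1c*, an alpha-tubulin of dividing cells, rose in WT mice, from 5.22 ± 2.55 CPM after PBS to 22.9 ± 8.48 after CBE (SD, n = 3 each; log2 fold change 2.33 ± 0.35, adjusted p = 0.000137). In MyTrMaSt null mice it rose from 3.38 ± 0.187 (n = 3) to 16.1 ± 3.57 (n = 5; 2.24 ± 0.32, adjusted p = 0.000221). *Tubb6*, a beta-tubulin low in neurons, also rose in both genotypes (2.60 ± 0.68 and 2.17 ± 0.53, adjusted p = 0.0184 and 0.0157). In null mice 1 CBE library was at 66.0 CPM while the lowest was at 10.1, and without *MyTrMaSt + CBE* replicate 4 the value was 1.41 ± 0.25 (adjusted p = 0.00223). A rise was also called for *Tbce*, a tubulin folding factor, in WT mice (0.95 ± 0.29, adjusted p = 0.0432). All 5 of these calls held without *WT + PBS* replicate 1. *Tubb4b*, a widely expressed beta-tubulin, fell in WT mice and held (-0.86 to -0.54), while *Ttl*, the tubulin tyrosine ligase, fell (-0.92) and did not hold (adjusted p = 0.130).

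Among other microtubule-associated, plus-end and severing proteins (36 genes, 35 tested), 2 were downregulated in WT mice and 1 in MyTrMaSt null mice, and 0 were upregulated, where 3.89% and 2.44% of all tested genes were called lower in the 2 genotypes. These counts lie near the background; without *WT + PBS* replicate 1 they were 4 and 6, against 4.05% and 7.87%. *Tppp*, a tubulin-bundling protein of oligodendrocytes, fell in both genotypes (-0.93 ± 0.17, adjusted p = 0.000991, and -0.70 ± 0.14, adjusted p = 0.00538), and *Tppp3* fell in WT mice (-0.89 ± 0.22, adjusted p = 0.0152). These calls held without *WT + PBS* replicate 1. *Map1lc3a*, which encodes the autophagosome protein LC3A, was at -1.05 ± 0.33 in WT mice (adjusted p = 0.0508) and at -0.33 without that library (adjusted p = 0.328). Of 41 tested subunits and adaptors of motors, 5 fell in WT mice (*Klc2*, *Dynll2*, *Dynll1*, *Dctn2* and *Trak2*) and 1 in MyTrMaSt null mice (*Dynlt3*), and 0 rose, beside the same 3.89% and 2.44% of all tested genes. Leaving out *WT + PBS* replicate 1 made these 4 and 8, against 4.05% and 7.87%. All held without that library but *Dctn2* (-0.60 to -0.31, adjusted p = 0.0707). Of the genes named from these 3 lists, *Tuba1c*, *Tubb4b*, *Tppp* and *Klc2* passed whichever library was left out, and the others did not pass without at least 1 library.

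Markers of other cells moved with treatment in the same libraries. The shares of all tested genes to set beside them were 6.7% higher and 3.89% lower in WT mice and 5.32% and 2.44% in null mice, or 8.58% and 4.05%, and 10.7% and 7.87%, without *WT + PBS* replicate 1. Of 16 neuronal markers, 4 fell in WT mice (*Eno2*, *Uchl1*, *Thy1* and *Slc17a7*; all but *Slc17a7* held without *WT + PBS* replicate 1) and 2 in MyTrMaSt null mice (*Slc17a6* and *Snap25*, which held), and 0 rose. Without that library the counts were 5 lower in WT mice, and 6 lower and 1 higher in null mice. In WT mice the 16 summed to 18290 to 20709 CPM after PBS and to 13914 to 14647 after CBE, and in null mice to 17244 to 18903 and to 15100 to 17900. Of 10 microglia markers, 8 rose in each genotype, and they summed to 575 to 873 CPM after PBS and 3420.0 to 3980.3 after CBE in WT mice, and to 477 to 499 and 1958 to 2260.1 in null mice. When *WT + PBS* replicate 1 was left out, 9 and 8 rose. Its sums were the highest of *WT + PBS* for neuronal and for microglia markers (18290 and 18328, and 575 and 629 CPM, in the other libraries). Oligodendrocyte markers fell in 6 of 8 cases in WT mice and in 1 of 8 in MyTrMaSt null mice (8 and 4 without that library), with sums of 8275 to 9565 and 5031 to 6566 CPM in WT mice and 9473 to 10565 and 6757 to 8601 in null mice. Of 7 astrocyte markers, 3 rose and 1 fell in WT mice and 2 rose in null mice; without that library 4 rose in each and 0 fell. Of 10 immature neuron markers, 1 rose in WT mice and 2 rose in null mice (1 higher and 1 lower, and 3 higher and 2 lower, without that library). Of 6 endothelial markers, 0 changed in WT mice and 1 fell in null mice (0 and 2 without it). No marker of any of these lists was at 0 in any library. The part of a shifted mix of cells in the falls above was not tested.

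Among the 38, 8 genes listed for their use in mature neurons (*Nefl*, *Nefm*, *Nefh*, *Map1a*, *Mapt*, *Tuba4a*, *Tubb4a*, which oligodendrocytes also make, and *Kif5a*) had a median change of -0.86 (log2) in WT mice and -0.45 in MyTrMaSt null mice, with 5 and 3 of 8 downregulated, beside 3.89% and 2.44% of all tested genes. Genes of young neurons (*Dcx*, *Tubb3*, *Tubb2b*, *Tuba1a*, *Map1b* and *Stmn2*) had a median of -0.41 and -0.18, with 1 and 0 of 6 downregulated. Without *WT + PBS* replicate 1, the 2 medians in WT mice were -0.58 and -0.32, with 6 of 8 and 2 of 6 downregulated, and in null mice 5 of 8 and 1 of 6 were (4.05% and 7.87% of all tested genes). Both lists were chosen with earlier results of these data known. Their counts and medians describe the listed genes and are no evidence of a pattern of mature neurons. *Map2*, the dendritic protein, is in neither list, at 0.40 in WT mice and at -0.08 without *WT + PBS* replicate 1. The difference between the 2 lists was not tested.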

How the data were processed

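Brain RNA of 14 mice, 1 library per mouse, was analysed. The deposited table gives counts: the authors made bulk MARSseq libraries, mapped reads to mm10 with hisat and kept unique matches. Cutadapt and HTSeq are named in the submitters' processing notes without a role, and use of strand and of molecular identifiers is not given in the sources used here. Every listed gene reached 6 counts in at least 1 library. The deposited normalized values and the authors' fold changes and p values for CBE over PBS were not used.

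The tests were run with edgeR 4.0.16 under R 4.3.3: filterByExpr, TMM, 1 quasi-likelihood model with 4 group means over 14 libraries, 5 contrasts and Benjamini-Hochberg adjustment over 11852 genes. Means are mean ± SD; fold changes carry their SE. Alternatives were RLE factors, DESeq2 1.42.0, limma 3.58.1 voom, no filter on low counts or at least 10 counts in every library, only the groups compared, a replicate block (without *MyTrMaSt + CBE* replicates 4 and 5), an *Xist* covariate, a 2-fold rule, and leaving out each library. The 12 libraries of the block without it were added after the data were seen. Isotype shares were compared by exact permutation. The procedure was tested on simulated data. Transcripts and loci came from GENCODE M21 (GRCm38).

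The genes and lists were chosen with earlier results of these data known. Values per library are given for genes with an adjusted p below 0.05 in any contrast, for *Mapre3* and *Mast2*, and for the highest and lowest change with CBE in each genotype; *Ina*, *Stmn2*, *Mapt* and *Tubb2b* were added after their values were seen. From other lists, genes called with CBE and *Map1lc3a* are named. The libraries of a group differed from each other by more than sampling noise, and p-values measure the spread between them.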

Additional observations from a re-analysis of the deposited data

Results flagged for a closer look

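In *MyTrMaSt + CBE*, the only group large enough, the 38 genes were each searched for 1 library far from the other 4 (gap to the nearest library over the range of the group above Dixon's critical value of 0.71), and 5 genes met this. Chance alone gives about 1 in 20 such groups. In 4 of the 5 the library was replicate 4, on the high side: *Nefl* at 590.3 CPM against 300.3 to 359 in the others, *Nefm* at 354 against 178 to 206, *Nefh* at 147 against 83.0 to 91.6, and *Stmn4* at 401 against 238 to 276. In the fifth, *Map1a* was at 65.0 CPM in replicate 2 against 43.3 to 49.5 in the others.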

How the results depend on the processing

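With all libraries, 10 of the 38 genes were called in WT mice, where 10.6% of all genes tested were called; the percentages here are that share in each fit. The number was 4 with a 2-fold minimum, 3 with the *Xist* covariate (*Kif5a*, *Nefh* and *Tubb3*; 5.45%), 5 with only the groups compared (4.46%), 12 by DESeq2 (*Mapre3* and *Stmn2* added; 12.5%), and 8 to 12 when 1 library was left out (6.24 to 12.6%). In MyTrMaSt null mice 4 were called, with 1 at 2-fold, 9 with only the groups compared (8 lower, 1 higher; 15.1%), and 3 to 12 when 1 library was left out, the 12 (10 lower, 2 higher; 18.6%) without *WT + PBS* replicate 1. For MyTrMaSt against WT after PBS it was 0, but 3 by DESeq2 (2.26%), and 0 to 4 when 1 library was left out; the 4 were without *WT + PBS* replicate 2 (*Dync1h1*, *Mapre3*, *Tubb3* and *Tubb5*; 3.86%) and 1, *Mapre3*, without replicate 3 (0.586%). For the interaction it was 0, with 0 to 1 when 1 library was left out (1, *Mapre3*, without *WT + PBS* replicate 3; 0.495%). For MyTrMaSt against WT after CBE it was 0 under every alternative run. The causes were not tested.

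The labels do not say that replicate numbers pair the mice. Correlations of same-numbered deviations ran from -0.184 to 0.173. Every sample matched its own number best in 1 of 6 pairs of groups, *WT + CBE* with *MyTrMaSt + CBE* (correlations 0.0524 to 0.112). Whether these groups share a batch was not tested. With the replicate block (12 libraries) 8 genes were called in WT mice (8.46%) and 4 in MyTrMaSt null mice (3.14%), the latter with *Nefl* in place of *Mapre2*; the same libraries without the block gave 8 (9.57%) and 4 (4%). Depth limits *Dcx* and *Dctn1*, with 2 to 44 counts per library.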
